A study of Mus musculus with 6 samples.

Results

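The 10 genes described here are widely used to identify Kupffer cells, the resident macrophages of the liver, in the mouse: Adgre1, Clec4f, Vsig4, Timd4, Cd5l, Marco, Cd163, Csf1r, Folr2 and Slc40a1. They were taken by symbol from a table of read counts for 40481 genes, in which all 10 were found, and all 10 were among the 17287 genes with enough reads to be tested. RNA-Seq had been run on whole-liver RNA from C57BL/6 males kept for 3 weeks on the MCD diet, which lacks methionine and choline, with 3 pools of each genotype, control and Mttp-IKO. Mttp encodes microsomal triglyceride transfer protein, which loads lipid onto apolipoprotein B during chylomicron assembly, and the comparison asks how the liver transcriptome differs when the intestinal gene has been deleted.

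Mice of both groups carried floxed Mttp (Mttp f/f) and Villin Cre ERT2, a Cre recombinase that is active in the intestinal epithelium once tamoxifen is given. Mttp-IKO mice received tamoxifen at 50 µg per g body weight daily for 5 days, and control littermates, which the sample labels call wild type, received vehicle. The MCD diet began 3 weeks later, at an age of 12 to 16 weeks. Tissue was taken after a fast of 4 hours by the labels and of 4 to 6 hours by the study's methods. The study's methods give 3 to 4 mice to each pool, whereas the labels speak of 12 livers, so each replicate averages several mice, and mice will have varied more than pools do. The deletion lies in the intestine, so the liver pools do not show it. Tamoxifen was given in the Mttp-IKO group and not in the control group, so that an effect of the drug and one of the deletion cannot be told apart.

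Kupffer cells sit inside the liver sinusoids, where they take up bacteria, aged red cells, dying cells and modified lipoproteins from the blood. Most arise from embryonic precursors and renew themselves, and when they are lost, monocytes from the blood can enter the liver and acquire the same genes with time, Timd4 being among the slowest to appear. In steatohepatitis, Kupffer cells are known to decline while recruited macrophages accumulate. The factor PU.1 is needed by all macrophages and binds a GGAA core, and with IRF8 it reads a composite element.

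The sequence before the start of a gene is shown for 4 of them, to put the sites of these factors beside the measured levels: Timd4 is the member that passed the test between genotypes, Cd163 had the largest log2 fold change, Clec4f is restricted to Kupffer cells, and Cd5l had the highest control level per kilobase. Each line gives the 250 bases before the start in the gene's own 5′ to 3′ direction, from RefSeq on GRCm38.p6, at chr11:46810549-46810798 on the plus strand for Timd4, chr6:124304401-124304650 on the plus strand for Cd163, chr6:83656117-83656366 on the minus strand for Clec4f and chr3:87357631-87357880 on the plus strand for Cd5l. Capitals mark GGAAGT, the ETS core as read by PU.1, and the ETS-IRF composite element, written GGAA, any 2 bases and GAAA, both searched on both strands.
Timd4: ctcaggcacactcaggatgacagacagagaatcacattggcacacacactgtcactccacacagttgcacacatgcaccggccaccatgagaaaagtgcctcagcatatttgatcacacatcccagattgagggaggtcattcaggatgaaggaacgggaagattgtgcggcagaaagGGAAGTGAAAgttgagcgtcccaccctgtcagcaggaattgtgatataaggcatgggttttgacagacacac
Cd163: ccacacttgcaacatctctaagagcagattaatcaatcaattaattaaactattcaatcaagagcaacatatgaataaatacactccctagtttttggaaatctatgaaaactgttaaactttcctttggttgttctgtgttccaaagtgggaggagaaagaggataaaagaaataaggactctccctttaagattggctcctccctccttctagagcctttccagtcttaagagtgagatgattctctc
Clec4f: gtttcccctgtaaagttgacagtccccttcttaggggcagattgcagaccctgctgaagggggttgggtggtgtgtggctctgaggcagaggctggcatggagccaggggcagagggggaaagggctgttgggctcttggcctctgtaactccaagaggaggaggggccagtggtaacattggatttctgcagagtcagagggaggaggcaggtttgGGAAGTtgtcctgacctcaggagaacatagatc
Cd5l: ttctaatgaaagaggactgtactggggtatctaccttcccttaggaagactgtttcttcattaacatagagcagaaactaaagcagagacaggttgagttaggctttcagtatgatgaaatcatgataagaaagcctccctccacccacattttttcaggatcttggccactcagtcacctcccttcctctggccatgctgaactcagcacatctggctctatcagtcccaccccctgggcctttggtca
In the Timd4 window both motifs begin at the same base, 72 bases before the start, so they are overlapping readings of 1 stretch. The Clec4f window holds GGAAGT at 33 bases before the RefSeq start. The gene as counted (chr6:83644542-83656187, minus strand) begins further upstream, so this motif lies inside the counted gene. The Cd163 and Cd5l windows hold neither motif. The search covered 7 of the 10 members with 8 windows, Folr2 having 2 starts. No window was used for Adgre1, Csf1r and Slc40a1, which does not mean that RefSeq lacks a start for them. The counts of member windows therefore do not cover these genes. GGAAGT occurred in 4 of these 8 windows (Clec4f, Vsig4, Timd4 and the upstream start of Folr2) and in 19.7% of all 32851 windows of the same length, and the composite element in 2 of 8 (Timd4 and the upstream start of Folr2) and in 2.3%. A match describes the letters and not a bound site.

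Among the 10 genes, 1 rose in Mttp-IKO liver and 0 fell at an adjusted p under 0.05 by edgeR (quasi-likelihood test, Benjamini-Hochberg adjustment over all 17287 genes), where 4.01% of all genes passed, 0.920% rising and 3.09% falling. The gene that rose was Timd4. At an unadjusted p under 0.05, 6 of the 10 were past the threshold by edgeR, against 23.0% of all genes. Of these 6, 3 were higher (Timd4, Cd163 and Marco), beside 9.53% of all genes, and 3 lower (Adgre1, Cd5l and Csf1r), beside 13.5%. DESeq2 put 3 members past an adjusted p of 0.05 (Timd4, Cd163 and Adgre1) and 11.5% of all genes, and limma-voom put 0 members and 2.48%. In all, 4 members had a positive and 6 a negative log2 fold change, with a median of -0.24 beside 0.0057 for all genes tested. For 3 members no pool of 1 genotype reached into the range of the other, higher in Mttp-IKO for Timd4 and Cd163 and lower for Adgre1, beside 14.5% of all genes higher and 16.5% lower without overlap. The genes therefore did not move in 1 direction as a list. In whole-liver RNA, fewer cells of a type and less RNA per cell cannot be told apart.

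**Figure D1:**
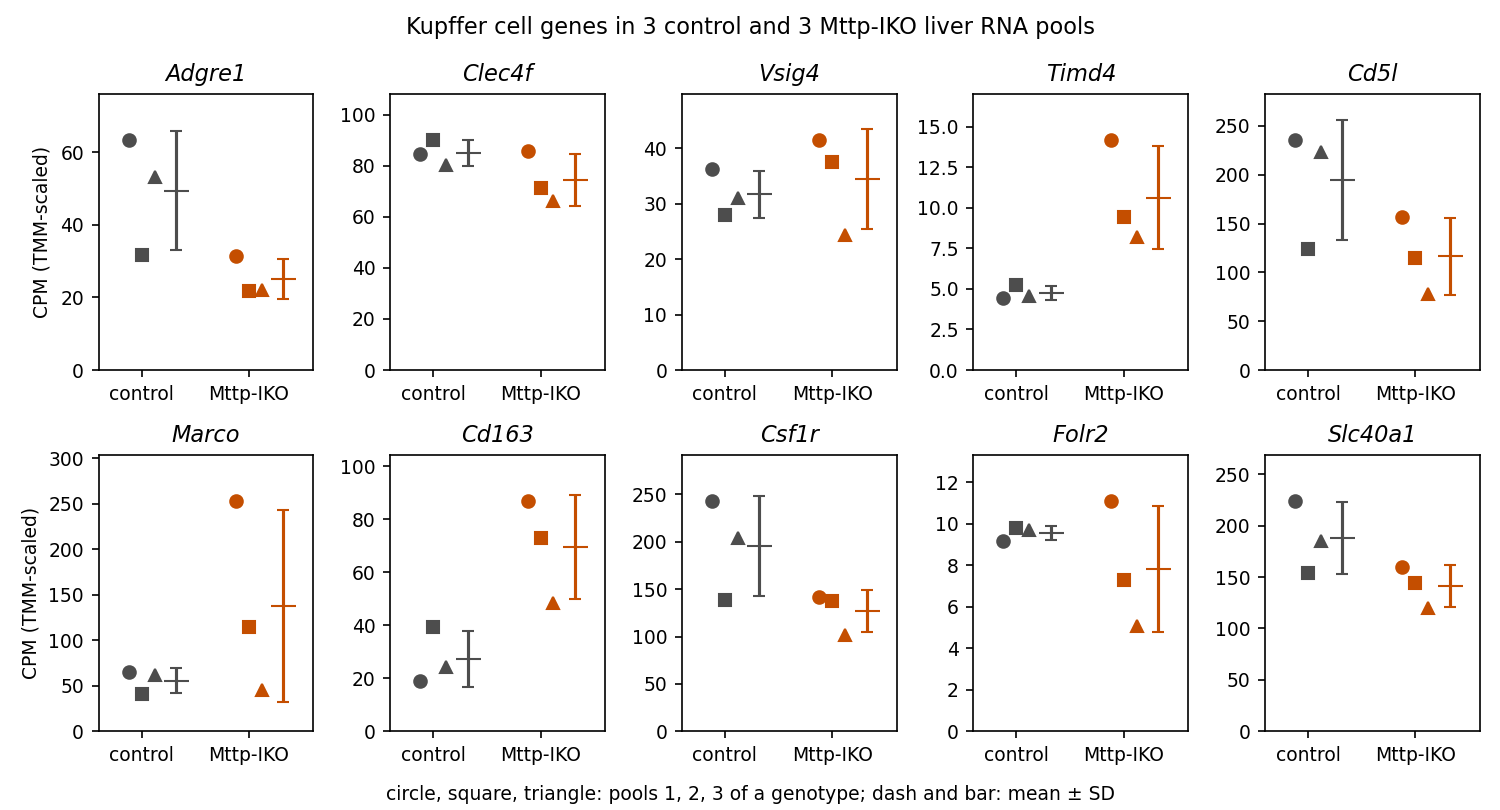
Level of each of the 10 Kupffer cell genes as CPM (the reads of a gene relative to the total of its pool, scaled by TMM so that libraries match over most genes) on linear axes that start at 0, with 1 symbol for each of the 3 control (grey) and 3 Mttp-IKO (orange) pools and the mean with its SD beside them. Mttp-IKO pools lie above all control pools for Timd4 and Cd163 and below them for Adgre1, and overlap them for the other 7 genes.

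Timd4 encodes TIM-4, a receptor for phosphatidylserine that lets resident macrophages bind and engulf dying cells (chr11:46810800-46844332, plus strand). It was read at 4.44, 5.21 and 4.56 CPM in control pools 1 to 3 and at 14.2, 9.43 and 8.22 CPM in Mttp-IKO pools 1 to 3. The lowest Mttp-IKO pool was above the highest control pool, and the control pools were close together, with a mean of 4.74 ± 0.416 CPM (SD, n = 3) against 10.6 ± 3.15 CPM (SD, n = 3). The fold change was 2.24 (95% confidence interval 1.52 to 3.3), or 1.16 on the log2 scale with a standard error of 0.242 (adjusted p = 0.0425, edgeR). These levels rest on 146 to 440 reads per pool. The call was not kept when control pool 1, 2 or 3 or Mttp-IKO pool 1 or 2 was left out (adjusted p = 0.182, 0.0695, 0.186, 0.0845 and 0.128, edgeR), while the log2 fold change stayed between 0.90 and 1.32.

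Cd163 encodes the scavenger receptor for haemoglobin bound to haptoglobin, through which macrophages clear free haemoglobin (chr6:124304651-124330527, plus strand). Its level was 18.9, 39.2 and 24.1 CPM in control pools 1 to 3 and 86.9, 73.1 and 48.5 CPM in Mttp-IKO pools 1 to 3. All Mttp-IKO pools were above all control pools, with control pool 2 the highest of the controls and Mttp-IKO pool 3 the lowest of its genotype. The log2 fold change of 1.34 (standard error 0.312, 95% confidence interval 0.62 to 2.06) narrowly missed the threshold (adjusted p = 0.056, edgeR). It was past the threshold without control pool 2 (1.68, adjusted p = 0.0281, edgeR) and without Mttp-IKO pool 3 (1.55, adjusted p = 0.0377, edgeR). The threshold was not passed without control pool 1 or 3 or Mttp-IKO pool 1 or 2 (adjusted p = 0.201, 0.226, 0.112 and 0.172, edgeR).

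Marco encodes a scavenger receptor that binds bacteria and particles (chr1:120474538-120505024, minus strand). Control pools 1 to 3 had 65, 40.5 and 61.8 CPM, and Mttp-IKO pools 1 to 3 had 253, 115 and 45.1 CPM. Mttp-IKO pools 1 and 2 were above every control pool, and Mttp-IKO pool 3 lay among the controls. This was the member with the widest spread within a genotype, 138 ± 106 CPM (SD, n = 3) in Mttp-IKO. The log2 fold change was 1.31 (95% confidence interval 0.077 to 2.54; adjusted p = 0.195, edgeR), which became 0.53 without Mttp-IKO pool 1 and 1.73 without Mttp-IKO pool 3 (adjusted p = 0.0425, edgeR). With any other single pool left out, Marco did not pass (adjusted p = 0.292 to 0.438, edgeR).

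Cd5l encodes AIM, a secreted protein of tissue macrophages that circulates with IgM (chr3:87357881-87371074, plus strand). Its level was 236, 124 and 223 CPM in control pools 1 to 3 and 157, 115 and 78.2 CPM in Mttp-IKO pools 1 to 3. Mttp-IKO pool 1 was above control pool 2, so the genotypes overlapped. The log2 fold change was -0.74 with an interval of -1.47 to -0.0056 and did not pass the test (adjusted p = 0.214, edgeR).

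Clec4f and Vsig4 encode surface receptors that are largely confined to Kupffer cells within the liver. Clec4f, a C-type lectin that binds galactose-containing glycans (chr6:83644542-83656187, minus strand), was read at 84.5, 90.2 and 80.1 CPM in control pools 1 to 3 and at 85.7, 71.2 and 66.2 CPM in Mttp-IKO pools 1 to 3. The groups overlapped through Mttp-IKO pool 1, and the log2 fold change was -0.19 with an interval of -0.55 to 0.17 (adjusted p = 0.503, edgeR). That interval corresponds to a level of 0.682 to 1.13 times the control level. Vsig4, the complement receptor CRIg that captures opsonized bacteria (chrX:96247203-96293438, minus strand), was read at 36.2, 27.9 and 31 CPM in control pools and at 41.6, 37.5 and 24.4 CPM in Mttp-IKO pools. Mttp-IKO pools held both the highest and the lowest value, and the log2 fold change was 0.12 with an interval of -0.38 to 0.63 (adjusted p = 0.78, edgeR), its sign turning to -0.0347 without Mttp-IKO pool 1.

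Adgre1 and Csf1r are expressed by macrophages in general as well as by Kupffer cells. Adgre1 encodes F4/80, the adhesion receptor used to stain mouse macrophages (chr17:57358686-57483529, plus strand), and was read at 63.5, 31.6 and 53.3 CPM in control pools 1 to 3 and at 31.4, 21.7 and 22.1 CPM in Mttp-IKO pools 1 to 3. All Mttp-IKO pools were below all control pools, although the closest pair, control pool 2 and Mttp-IKO pool 1, were almost equal. The log2 fold change was -0.98 (standard error 0.275, interval -1.61 to -0.35) and did not pass the threshold (adjusted p = 0.0895, edgeR). Without control pool 2 it was past it (-1.24, adjusted p = 0.0316, edgeR), as it was by DESeq2 with all pools (adjusted p = 0.0211). Leaving out control pool 1 or 3 or Mttp-IKO pool 1, 2 or 3 did not bring Adgre1 past the threshold (adjusted p = 0.291, 0.27, 0.0959, 0.24 and 0.129, edgeR). By limma-voom with all pools the adjusted p was 0.111.

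Csf1r encodes the receptor for CSF1 and IL-34, on which macrophages depend for survival (chr18:61105572-61132149, plus strand). Its level was 243, 139 and 204 CPM in control pools 1 to 3 and 142, 137 and 102 CPM in Mttp-IKO pools 1 to 3. Mttp-IKO pool 1 was just above control pool 2, and the log2 fold change of -0.62 (interval -1.18 to -0.072) did not pass the test (adjusted p = 0.174, edgeR). Hmgxb3 on the opposite strand and Mir6983 overlap Csf1r and were assigned 5598 reads in all pools together. Whether strand was used in counting is not stated, so a part of these reads cannot be placed with certainty.

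Folr2 and Slc40a1 handle a vitamin and a metal. Folr2 encodes folate receptor beta (chr7:101839990-101845331, minus strand) and was read at 9.15, 9.79 and 9.68 CPM in control pools 1 to 3 and at 11.1, 7.27 and 5.08 CPM in Mttp-IKO pools 1 to 3. The control pools were within a narrow range and the Mttp-IKO pools lay on both sides of it, so the log2 fold change of -0.28 had an interval of -0.92 to 0.35 (adjusted p = 0.577, edgeR). Slc40a1 encodes ferroportin, the iron exporter through which Kupffer cells return iron from red cells to the blood (chr1:45908068-45926523, minus strand), and was read at 224, 154 and 185 CPM in control pools and at 160, 144 and 120 CPM in Mttp-IKO pools. Mttp-IKO pool 1 was above control pool 2, and the log2 fold change was -0.41 with an interval of -0.87 to 0.045 (adjusted p = 0.261, edgeR).

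**Figure D2:**
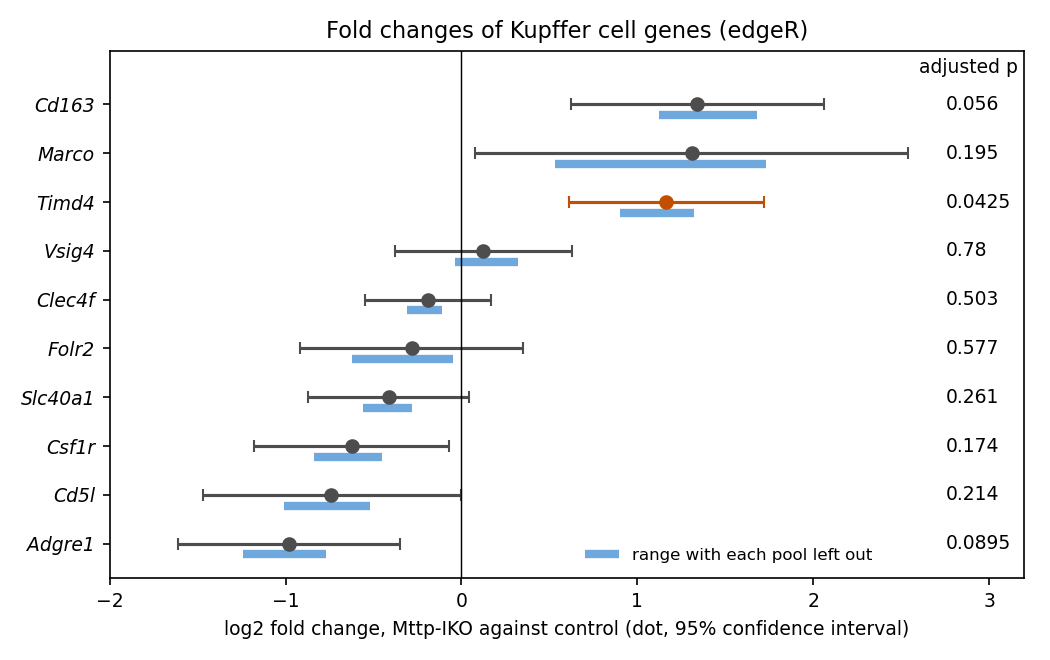
Log2 fold change of each gene in Mttp-IKO against control liver by edgeR, as dots with 95% confidence intervals, ordered by size with the adjusted p at the right, and below each the range of the estimate when each of the 6 pools is left out (blue). Timd4 (orange, adjusted p = 0.0425) is the gene past the threshold, at 1.16, and the 10 estimates run from -0.98 for Adgre1 to 1.34 for Cd163.

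Pools of a genotype differed in a way that ran through the members. Mttp-IKO pool 1 was the highest of its genotype for all 10 genes, where it was the highest for 30.6% of all genes tested, and Mttp-IKO pool 3 was the lowest for 9 of the 10, against 40.1%. Control pool 2 was the lowest of its genotype for 6 members, against 38.3% of all genes, and the highest for the other 4 (Clec4f, Timd4, Cd163 and Folr2), against 37.7%. The 10 genes are all expressed by Kupffer cells, and some of them also by other cells. They can vary together, so such counts describe the pools and are not 10 independent observations. Mttp-IKO pool 3 also stood apart in its small RNAs, with 0.289% of reads on them against 1.92 to 3.51% in the other pools, and control pool 2 held 570 CPM of striated muscle mRNAs, against 74.8 CPM in control pool 1 and at most 1.01 CPM in the others. With both of these pools left out, a choice made after the values were seen, 6 members were past the threshold by edgeR, Timd4, Cd163 and Marco higher and Adgre1, Cd5l and Csf1r lower, while 2146 of all genes were past it in place of 694. The part of small RNA loss or muscle tissue in the levels of these genes was not tested.

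Levels of different genes were compared per kilobase of gene length, as RPKM computed from the TMM-scaled CPM. In control liver the order was Cd5l (95.5 RPKM, pools 61.1 to 116), Csf1r (40), Clec4f (34.4), Marco (29), Vsig4 (21.4), Slc40a1 (20.8), Adgre1 (15.2), Folr2 (8.84), Cd163 (6.1) and Timd4 (2.18). Neighbours in that order had separate pool ranges at 3 places, between Cd5l and Csf1r, between Adgre1 and Folr2 and between Cd163 and Timd4, and overlapped elsewhere. In Mttp-IKO liver Marco stood first (71.6 RPKM, pools 23.4 to 132), followed by Cd5l (57.2), Clec4f (30.1), Csf1r (26), Vsig4 (23.2), Slc40a1 (15.7), Cd163 (15.5), Adgre1 (7.73), Folr2 (7.25) and Timd4 (4.88). There the pool ranges of neighbours were separate between Cd5l and Clec4f and between Cd163 and Adgre1 only. Timd4 was last in both genotypes, and Cd163 stood below Adgre1 in control liver and above it in Mttp-IKO liver. No member was at 0 in any pool, and the summed CPM of the 10 genes was 662 to 985 in control and 520 to 982 in Mttp-IKO pools. The markers of the label were thus detected in all 6 pools, although in whole liver these reads cannot be assigned to a cell type.

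Genes that macrophages in general express were measured beside them. Of 12 pan-macrophage genes, 0 rose and 2 fell by edgeR, beside 3.09% of all genes that fell: Lyz2, which encodes lysozyme (log2 fold change -1.80, adjusted p = 0.0285), and Cybb, a subunit of the phagocyte oxidase (-1.24, adjusted p = 0.0482). Cd14 alone had a positive fold change, 9 of the 12 had Mttp-IKO pools below all control pools (16.5% of all genes did), and the median log2 fold change was -1.27. Their summed CPM was 564 to 1180 in control and 331 to 420 in Mttp-IKO pools, with none at 0 in any pool. Of 12 genes of recruited or lipid-associated macrophages, 8 fell and 0 rose by edgeR, among them Ccr2, the chemokine receptor of monocytes (-2.20, adjusted p = 0.0192), Cx3cr1 (-2.78, adjusted p = 0.0151), the lipid-sensing receptor Trem2 (-2.62, adjusted p = 0.0293) and Mmp12 (-2.74, adjusted p = 0.0306). The others that fell were Ly6c2, Itgax, Clec7a and Fabp5. The median of that list was -2.27, and its summed CPM was 389 to 1160 in control and 150 to 232 in Mttp-IKO pools, with none at 0. Several genes of both lists are also expressed by Kupffer cells or by other cells of the liver, and their part in the members' values was not tested.

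Because most pan-macrophage genes had lower levels in Mttp-IKO liver, each member was also expressed relative to it, as log2 CPM minus the mean log2 CPM of the 12 pan-macrophage genes in the same pool. That mean was 5.90, 4.72 and 5.72 in control pools 1 to 3 and 4.59, 4.26 and 3.87 in Mttp-IKO pools 1 to 3. The mean of the reference was 1.21 lower in Mttp-IKO, so a gene with equal log2 CPM in both genotypes has a difference of 1.21 on this scale. All 10 members had a positive difference, as did 93.4% of all genes tested, and for 8 of the 10 the Mttp-IKO pools were above all control pools. Over all genes tested 51.3% were higher and 1.23% lower without overlap on the same scale, since lowering the reference raises every gene, so the count of 8 is read against that share. An exact two-sided permutation test of 3 pools against 3 cannot give a p under 0.1.

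Cd163 and Timd4 had the largest relative differences among the members. Cd163 stood at -1.65, 0.58 and -1.13 in control pools 1 to 3 and at 1.86, 1.94 and 1.74 in Mttp-IKO pools 1 to 3, a difference of 2.58 on the log2 scale. Timd4 stood at -3.73, -2.32 and -3.51 in control and at -0.75, -1.01 and -0.81 in Mttp-IKO pools, a difference of 2.33. Both genes were higher in every Mttp-IKO pool than in any control pool (exact permutation p = 0.1 for each), with control pool 2 the closest control. Marco at 2.22 and Vsig4 at 1.30 were also above 1.21 and without overlap (exact permutation p = 0.1 for each). Clec4f at 1.01, Slc40a1 at 0.80, Csf1r at 0.61 and Cd5l at 0.47 did not overlap either (exact permutation p = 0.1 for each), but lay below 1.21, so these values state that they were less low than the reference and not that they were higher in Mttp-IKO liver. Folr2 (0.85) and Adgre1 (0.27) overlapped between genotypes (exact permutation p = 0.2 for each), and with the median in place of the mean of the 12 genes Adgre1 gave -0.00741.

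**Figure D3:**
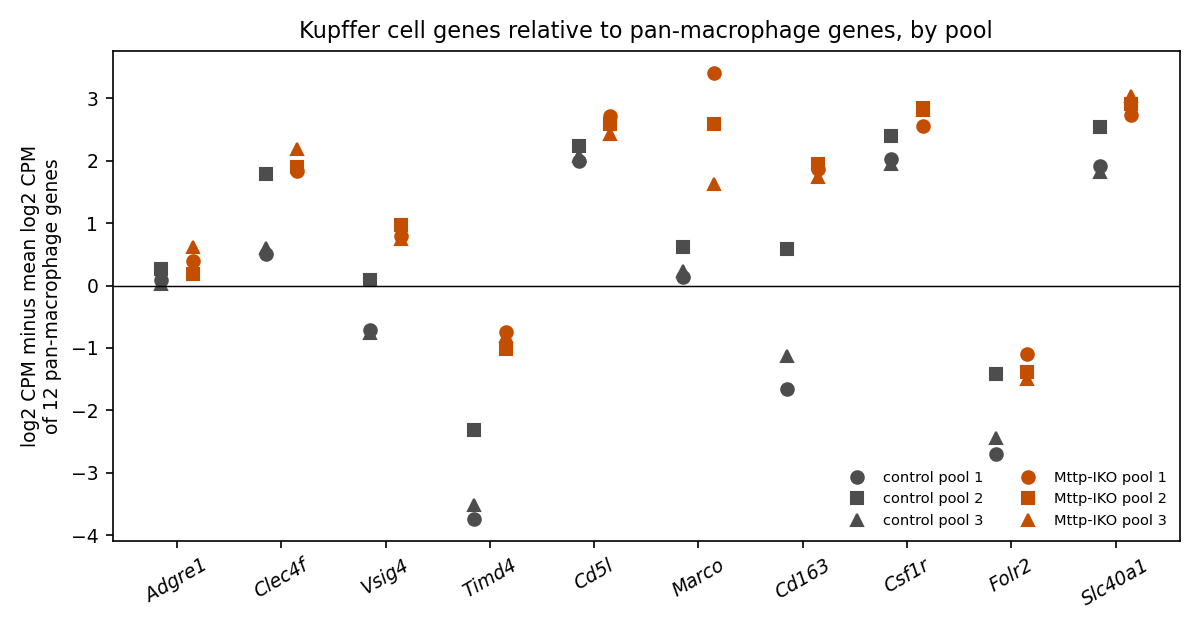
Log2 CPM of each member minus the mean log2 CPM of 12 pan-macrophage genes in the same pool, for 3 control (grey) and 3 Mttp-IKO (orange) pools, with the pool number given by the symbol. The Mttp-IKO pools lie above all control pools for 8 genes, by 2.58 for Cd163 and 2.33 for Timd4 on average, and overlap them for Adgre1 and Folr2, where a gene with equal log2 CPM in both genotypes would differ by 1.21.

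Clec4f, which overlapped between genotypes, was taken as a second reference after the values had been seen. Per kilobase, the ratio of Timd4 to Clec4f was 0.0597, 0.0657 and 0.0648 in control pools 1 to 3 and 0.188, 0.151 and 0.141 in Mttp-IKO pools 1 to 3. The ratio of Cd163 to Clec4f was 0.123, 0.239 and 0.165 in control and 0.558, 0.565 and 0.403 in Mttp-IKO pools. These ratios were 2.49 and 2.96 times as high in Mttp-IKO, with no overlap between genotypes (exact permutation p = 0.1 for each), beside 21.0% of all genes that were higher and 8.81% that were lower without overlap relative to Clec4f. The other 7 members overlapped, among them Adgre1 at 0.572, 0.266 and 0.507 in control and 0.279, 0.232 and 0.255 in Mttp-IKO pools, and Marco at 0.987, 0.576 and 0.99 in control and 3.79, 2.08 and 0.875 in Mttp-IKO pools.

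Of 14 further Kupffer cell genes, 0 rose and 1 fell by edgeR, beside 0.920% and 3.09% of all genes. That gene was Axl, a receptor kinase that takes part in the clearance of dying cells (153, 88.5 and 134 CPM in control and 56.9, 50.5 and 52.7 CPM in Mttp-IKO liver, a log2 fold change of -1.23, adjusted p = 0.0292). The list held 4 genes with a positive and 10 with a negative log2 fold change, and its median was -0.22, close to the -0.24 of the members. Without overlap between genotypes, 1 was higher (Hpgd) and 3 were lower, beside 14.5% and 16.5% of all genes. The complement genes C1qa, C1qb and C1qc had log2 fold changes of -0.67, -0.91 and -0.61 (adjusted p = 0.183, 0.103 and 0.361, edgeR), and the mannose receptor gene Mrc1 had -0.13 (adjusted p = 0.63, edgeR).

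Of 12 transcription factors and cofactors that establish or maintain Kupffer cell identity, 0 rose and 3 fell by edgeR, beside 0.920% and 3.09% of all genes. Spi1, which encodes PU.1, was read at 44.6, 24.3 and 38.7 CPM in control and 17.6, 14.3 and 11.1 CPM in Mttp-IKO liver (-1.32 as a log2 fold change, adjusted p = 0.039, edgeR). Irf8 was read at 43.5, 20.9 and 34.2 CPM and at 14.4, 12.3 and 12.9 CPM (-1.32, adjusted p = 0.0378, edgeR). Zeb2, a repressor that helps keep tissue macrophages in their identity, had a log2 fold change of -1.09 (adjusted p = 0.0334, edgeR). All 3 were lower in every Mttp-IKO pool than in any control pool, and all are expressed by macrophages in general. Of the 12, 5 were lower and 2 higher without overlap, beside 16.5% and 14.5% of all genes. Nr1h3, which encodes LXR-alpha and is also expressed in hepatocytes, had -0.17 (adjusted p = 0.499, edgeR). Maf had 0.10 (adjusted p = 0.7) and Bach1 0.47 (adjusted p = 0.318), by the same test, and the median of the list was -0.15.

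Signals of the Kupffer cell niche and receptors for such signals were described by 15 genes, of which 13 were tested. By edgeR, 0 rose and 1 fell, a receptor gene, beside 0.920% and 3.09% of all genes. Without overlap between genotypes, 1 was higher and 5 were lower, beside 14.5% and 16.5% of all genes. Acvrl1, which encodes ALK1, a receptor for BMP9 and BMP10, fell from 16, 10.7 and 14.2 CPM in control to 7.7, 7.06 and 5.66 CPM in Mttp-IKO liver (adjusted p = 0.0463, edgeR). Csf1 and Il34, the ligands of the Csf1r product, had log2 fold changes of -0.43 and -0.70 (adjusted p = 0.246 and 0.178, edgeR). The Notch receptor genes Notch2 and Notch1 had 0.14 and -0.027 and Eng had -0.33 (adjusted p = 0.635, 0.937 and 0.261, edgeR). Csf2 had 0 reads in all pools, which allows a level of up to 0.0744 to 0.126 CPM after TMM scaling (3 reads in each pool), and Csf3 had 0 in 3 pools. The median of the list was -0.45.

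Heme and iron recycling and the clearance of dying cells are tasks to which Cd163, Slc40a1 and Timd4 belong. Of 10 further heme and iron genes 0 rose and 0 fell by edgeR, beside 0.920% and 3.09% of all genes, and the median log2 fold change was -0.44. The 4 with the highest mean CPM were Hpx at -0.29, Hp at -0.042, Fth1 at -0.80 and Ftl1 at -0.95 as log2 fold changes (adjusted p = 0.486, 0.955, 0.265 and 0.0658, edgeR). Hp and Hpx encode haptoglobin and hemopexin, plasma proteins of hepatocytes that bind free haemoglobin and heme, and Fth1 and Ftl1 encode the chains of ferritin. Of 9 clearance genes, 0 rose and 1 fell, beside the same shares of all genes. The gene that fell was the scavenger receptor gene Cd36 (-1.31, adjusted p = 0.0358, edgeR), and the median of the list was -0.59. Without overlap between genotypes, 1 clearance gene was higher and 5 were lower, beside 14.5% and 16.5% of all genes.

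**Figure D4:**
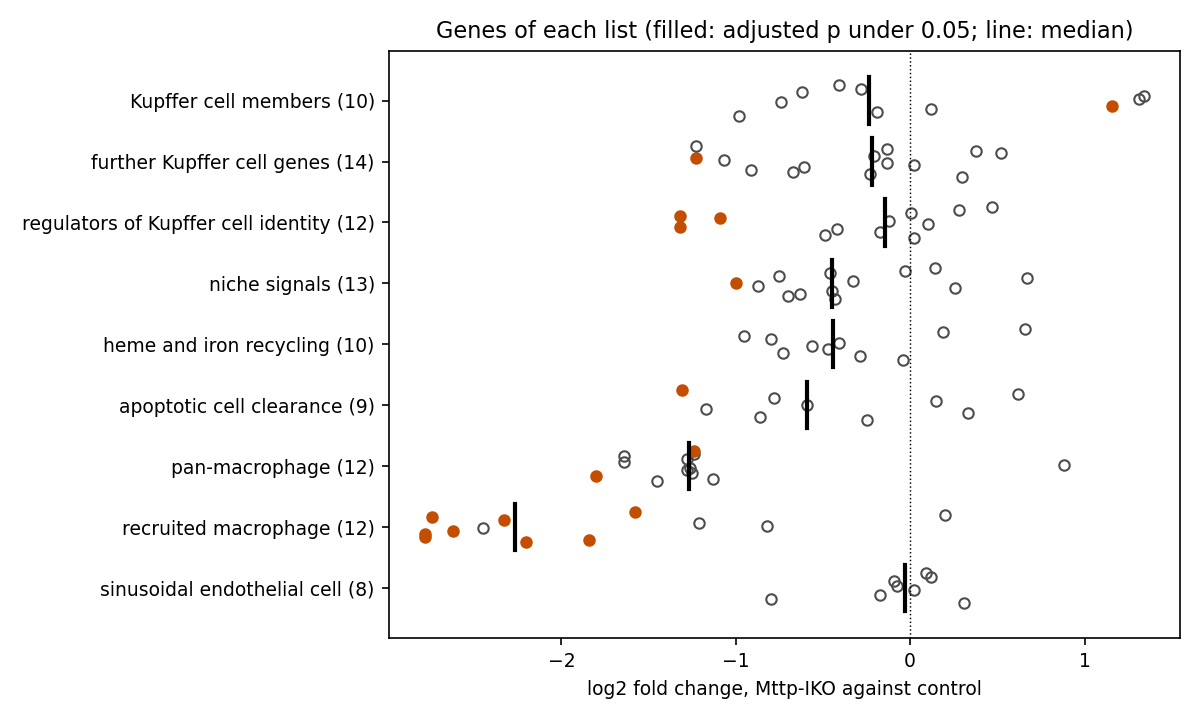
Log2 fold change of each tested gene (circle) in Mttp-IKO against control liver for the 10 members and 8 other lists, with the number of tested genes in parentheses, filled circles for an adjusted p under 0.05 by edgeR and a vertical line at each median. The members have a median of -0.24 and are spread on both sides of 0, with Timd4 filled, whereas the medians of the pan-macrophage and recruited macrophage genes are -1.27 and -2.27.

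Markers of other liver cells gave the setting of these values, and their counts are read beside the 0.920% of all genes that rose and 3.09% that fell. Of 8 sinusoidal endothelial genes 0 rose and 0 fell by edgeR, with a median log2 fold change of -0.03 and a sum of 371 to 420 CPM in control and 381 to 402 CPM in Mttp-IKO pools. Of 8 hepatocyte genes 0 rose and 0 fell, with 7 of 8 estimates positive, a median of 0.66 and a sum of 67332 to 103618 CPM against 130145 to 180733 CPM. Of 8 stellate cell genes 4 fell (Lrat, Pdgfrb, Col1a1 and Col3a1), with a median of -1.46 and a sum of 856 to 1507 CPM against 462 to 518 CPM. None of 7 cholangiocyte, 6 neutrophil, 4 B cell, 6 T cell and 2 striated muscle genes tested passed the threshold by edgeR, with medians of -0.85, -0.30, -1.63, -0.89 and -7.05. In the last list most reads came from control pools 2 and 1. Cd3d, and of the genes not tested Ms4a1, Ckm and Tnnt3, had 0 reads in 1 pool each, and the muscle genes Myh4, Pvalb and Tnnc2 had 0 in 2, 4 and 5 pools. Hepatocyte RNA made up more of each Mttp-IKO library than of any control library by this sum, and its part in the members' CPM was not tested.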

How the data were processed

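The authors deposited unnormalized read counts per gene, made from unique, unambiguous reads by featureCounts 1.4.6-p5 after STAR 2.5.1a alignment to GRCm38 (Ensembl release 76). Ribosomal RNA was depleted. CPM and RPKM columns of the authors matched values computed from the counts and were not used for the tests. CPM and RPKM given here come from the counts. Totals on genes ran from 25271585 to 36238734 reads. A gene at 0 can have had up to 3 reads, a limit for counting error only.

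Pools were grouped by their labels. The filter of edgeR 4.0.16 (R 4.3.3) for low counts (filterByExpr, minimum count 10 and minimum total 15) left 17287 genes. After TMM scaling, glmQLFTest compared 3 Mttp-IKO with 3 control pools, with Benjamini-Hochberg adjustment and a threshold of 0.05. The study names no tool for this step. The p-values measure the spread between pools. Log2 CPM relative to other genes used a prior count of 2.

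The members and all lists were chosen with earlier results of these data known. From the other lists, genes past the threshold are named, otherwise up to 4 with the highest mean CPM, and genes at 0 reads in a pool. Cd14, C1qa, C1qb, C1qc, Mrc1, Nr1h3, Maf, Bach1, Csf1, Il34, Notch1, Notch2 and Eng were named after their values were seen, and the values of 1 regulator are not reported here. The test was checked on simulated counts. Alternatives were other scalings and filters, protein-coding genes only, DESeq2 1.42.0, limma-voom (limma 3.58.1), a replicate block, removal of the trend with gene length (loess span 0.3), a threshold of 0.1 and leaving out pools. Upstream windows came from RefSeq.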

Additional observations from a re-analysis of the deposited data

How the results depend on the processing

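The sign of the log2 fold change was the same under all 17 alternatives for 9 of the 10 members, and Vsig4 turned to -0.0634 with library totals only and to -0.0347 without Mttp-IKO pool 1, its range with 1 pool left out being -0.0347 to 0.32. Against 1 member past the threshold, 0 were past it with library totals only, with limma-voom and with the replicate block, 2 without a filter (Cd163 and Timd4), 2 among protein-coding genes only, 2 with the length trend removed, 3 by DESeq2 (Timd4, Cd163 and Adgre1), 3 at an adjusted p under 0.1, and 6 with both control pool 2 and Mttp-IKO pool 3 left out. Leaving out each pool in turn gave 0 to 3 members. Timd4 was past the threshold in 9 of 17 alternatives, with adjusted p between 0.00086 and 0.186, Cd163 in 7 (0.00128 to 0.226), Adgre1 in 3 (0.0163 to 0.291) and Marco in 2 (0.0315 to 0.438). The median of the members stayed negative, between -0.41 and -0.0573. Over all genes, 694 were past the threshold, against 1995 by DESeq2, 428 by limma-voom, 1658 at an adjusted p under 0.1, 2146 with both pools left out, and 0 to 892 when single pools were left out. Without a filter 990 genes were past it, and among protein-coding genes only 733, with other numbers of genes tested. The 0 came from leaving out Mttp-IKO pool 2, by edgeR, where 3221 genes had an unadjusted p under 0.05. Without control pool 1, control pool 3 or Mttp-IKO pool 1 the count was 24, 21 and 55. With an arm of 2 pools the test had fewer samples, and no other cause was tested.

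With library totals only the median of all genes was -0.17, and 112 of 1019 genes past the threshold were higher. With the length trend removed it was 0.12, with 353 of 861 higher, against 159 of 694. Relative to the pan-macrophage genes, Adgre1 turned to -0.00741 with the median of the list, and the other 9 members kept their sign under all 10 alternatives. The titles of both genotypes are numbered 1 to 3. The deviations of same-numbered pools correlated at 0.139, 0.112 and 0.00698, for each control pool its highest value. Mttp-IKO pool 3, however, correlated best with control pool 2 (0.0208). These correlations do not settle whether the numbers pair the pools, and the main test did not pair them. With the replicate block 592 genes and 0 members were past the threshold (Timd4 adjusted p = 0.0611, edgeR).

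With 3 pools per genotype the intervals of single members are wide, that of Marco running from 0.077 to 2.54, and Timd4, the member read least per kilobase, rests on 146 to 440 reads per pool.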
